A study of Mus musculus with 6 samples.

Results

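The B cells of the uterine-draining lymph node were compared with the B cells of the brachial lymph node of the same pregnant mouse. The cells that the deposited cell table annotates as B were taken, and their raw UMI counts (unique molecular identifiers, each standing for a captured RNA molecule) were summed per mouse and node, with at least 20 cells a sum. This gave 2267 B cells of 7300 cells in all, 678 from the uterine-draining and 1589 from the brachial node, and all 7 mice had both sums.

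The dams were 4 Aire-DTR mice, named for a diphtheria toxin receptor (DTR) tied to the tolerance gene Aire, and 3 wild-type (WT) mice (mice 1, 6 and 97). Every dam, the WT controls included, was mated with a BALB/c male, received diphtheria toxin over the first 9 days of pregnancy and was sampled at embryonic day 9.5. In the cell table mouse 4 carries the pregnancy label resorbed, and the other 3 Aire-DTR mice (mice 7, 8 and 36) carry the label IUGR. Hashtag antibodies marked mouse and tissue so that cells could share droplet runs: mice 1, 4 and 7 made up pool LN, mice 6 and 8 pool 1, and mice 36 and 97 pool 2. The labels give the sort as CD45+ CD3+ in one place and as CD45+ in another, so how B cells, which lack CD3, entered the sort is not settled by the sources used here. For strain and age of the dams and for the promoter of the receptor, nothing is given in the sources used here.

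Each cell of 1 well of pool LN fills a pair of rows in the deposited table, with the same barcode. All 2127 repeated rows were identical to their partner in every gene and label, so 9427 rows held 7300 distinct cells, and 2849 B rows held 2267 distinct B cells. Each cell was counted once in all results below. After that, 208 barcodes still occurred in more than 1 well, in 214 pairs of cells, and no pair had identical counts. The sums held 20 to 357 B cells and 55056 to 924800 UMIs. The uterine-draining sum of WT mouse 97, with 20 B cells, sat at the minimum, and the node differences of the V segments and of the 5 other genes described singly are given with and without it.

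Follicular B cells enter a lymph node from the blood across high endothelial venules, settle in follicles under chemokine guidance and leave through the efferent lymph by following sphingosine-1-phosphate. The uterine-draining node receives lymph from the uterus, and the brachial node receives it from the forelimb and upper trunk, so of the pair it is the former that drains the site of the pregnancy. Each B cell expresses mostly a single rearranged light chain, and a cell and its descendants share its V segment. Unrelated B cells can carry the same segment, so a segment alone does not mark a clone.

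Markers of B cells were detected more often in the cells annotated as B than in naive T cells. Cd79a, a signalling chain of the receptor complex, was detected in 98.3% of B cells and in 2.99% of naive CD4 and 2.50% of naive CD8 T cells, at median depths of 2261, 2903 and 3446.5 UMIs per cell. Ms4a1 (CD20) had a UMI in 87.2% of B cells and in 0.646% and 0.521% of the same T cells. Some B cell markers were less confined to B cells. Ighm had a UMI in 48.2% of naive CD4 and 54.2% of naive CD8 T cells against 87.6% of B cells. Cd74 had a UMI in 13.6% and 14.1% of the same T cells against 98.8% of B cells. For Cd79b the shares were 1.82% and 11.99% against 97.9%. The macrophage gene Csf1r and the NK cell gene Ncr1 were at 0 in every B cell sum, and Lyz2 had a UMI in 0.265% of B cells. Other markers were present: Cd3d had a UMI in 6.44% of B cells, the myeloid marker Cst3 in 44.7% and the globin gene Hbb-bs in 39.7%. B cells with a T cell receptor or CD3 UMI made up 0% (mouse 6, uterine-draining) to 18.1% (mouse 1, brachial) of a sum. The source of these UMIs was not tested.

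The genes that passed edgeR's test between the nodes were both immunoglobulin kappa V segments, the gene pieces that encode most of the variable part of the kappa light chain. Igkv6-15 and Igkv4-55 were lower in the uterine-draining node, and they are named here after their values were seen. The last 300 bases of their coding sequences, which leave out most of the leader, are taken from the GENCODE M21 annotation of GRCm38 and shown with that of Igkv6-17, a relative of Igkv6-15 that lay on the other side of 0. Capitals in the first pair mark the 27 bases of this stretch at which Igkv6-15 and Igkv6-17 differ. Over the whole coding sequence 32 of 347 bases differ and 90.8% are identical.
Igkv6-15: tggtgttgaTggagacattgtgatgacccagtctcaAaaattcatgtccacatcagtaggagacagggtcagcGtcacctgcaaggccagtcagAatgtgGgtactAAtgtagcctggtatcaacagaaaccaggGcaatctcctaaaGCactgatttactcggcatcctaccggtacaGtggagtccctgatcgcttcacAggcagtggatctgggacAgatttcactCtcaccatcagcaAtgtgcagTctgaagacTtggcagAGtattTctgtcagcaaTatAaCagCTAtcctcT
Igkv6-17: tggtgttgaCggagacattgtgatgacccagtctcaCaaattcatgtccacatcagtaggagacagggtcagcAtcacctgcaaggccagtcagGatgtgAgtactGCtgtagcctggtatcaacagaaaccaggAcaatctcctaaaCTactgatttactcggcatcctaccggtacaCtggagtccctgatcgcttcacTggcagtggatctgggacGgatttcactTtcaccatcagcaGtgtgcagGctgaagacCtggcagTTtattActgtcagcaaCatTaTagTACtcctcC
Igkv4-55: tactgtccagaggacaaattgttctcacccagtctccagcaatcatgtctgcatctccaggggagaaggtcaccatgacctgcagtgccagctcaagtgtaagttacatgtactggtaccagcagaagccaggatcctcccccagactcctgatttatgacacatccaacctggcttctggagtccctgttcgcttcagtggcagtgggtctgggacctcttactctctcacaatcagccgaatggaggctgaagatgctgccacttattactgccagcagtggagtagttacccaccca

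Igkv6-15 lies at chr6:70406469-70406992 on the minus strand, Igkv6-17 at chr6:70371439-70371993 on the plus strand and Igkv4-55 at chr6:69607275-69607828 on the minus strand (GRCm38). All are annotated as immunoglobulin V genes. Because relatives are so alike, the assignment of a UMI to a segment is uncertain. Of the windows of 31 bases in the Igkv6-15 coding sequence, 64.0% occur in no other annotated gene, and 13 other genes share at least 1 window. The share of such windows was 40.1% for Igkv6-17, and for Igkv4-55 it was 18.9%, with 32 other genes sharing a window. These shares are over the whole coding sequence, and the UMI counts do not tell which part of it the reads came from.

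Igkv6-15 levels in the brachial sums ran from 192 to 1019 CPM with a median of 520.5, and in the uterine-draining sums from 0 to 370.2 with a median of 113. CPM is the count per 1000000 UMIs of the tested genes, scaled by the trimmed mean of M values (TMM). All 7 mice were lower in the uterine-draining node, although the ranges of the nodes overlapped: mouse 8 had the lowest brachial value, and mouse 1 the highest uterine-draining one. The fitted log2 difference (uterine-draining minus brachial, mouse as block) was -1.76, with a 95% interval of -2.29 to -1.24 and an adjusted p of 0.00391 in edgeR's quasi-likelihood test. Without mouse 97, whose uterine-draining sum had no UMI of the segment, the difference was -1.67 (edgeR adjusted p = 0.0158). With DESeq2 the call was lost (-2.17, adjusted p = 0.125).

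For Igkv4-55 the brachial sums ran from 26.0 to 187 CPM with a median of 85.5, and the uterine-draining sums from 0 to 110.2 with a median of 15.3. Again 7 of 7 mice were lower in the uterine-draining node, and the ranges overlapped. The log2 difference was -1.59 (95% interval -2.19 to -0.997, edgeR adjusted p = 0.0409). The call was lost in limma-voom (adjusted p = 0.0561), and in edgeR without mouse 1, 4, 7, 8 or 97, with adjusted p from 0.0819 to 0.212 (-1.59 and 0.136 without mouse 97). Over the same sums DESeq2 gave an adjusted p of 0.0149.

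These V segment levels rest on few cells, and the UMIs of the same cell are not independent. The fit counts UMIs, not cells, and shares its estimate of spread with other genes. Its intervals and p for V segments can therefore be too narrow. A cell was assigned to the kappa V segment with the most UMIs, given at least 3, which placed 91.2% of brachial and 91.9% of uterine-draining B cells. Igkv6-15 led in 55 of 1589 brachial and 9 of 678 uterine-draining B cells, and those cells held 93.3% and 96.3% of its UMIs. The share of B cells led by it was 3.36% ± 1.31 (SD, n = 7 mice) in the brachial and 1.20% ± 0.78 in the uterine-draining node. It was lower in the uterine-draining node in 7 of 7 mice, and in mouse 97 it was 0 of 20 cells, which allows a share of up to 15%. In mouse 8 the shares were 1 of 96 brachial and 1 of 128 uterine-draining cells. Mice 6, 7 and 36 also had 1 led uterine-draining cell each.

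Igkv4-55 led in 22 brachial and 6 uterine-draining cells, a share of 1.501% ± 0.55 against 0.80% ± 0.70, again lower in 7 of 7 mice. In mouse 36 the brachial and uterine-draining shares were 1.96% and 1.80%, and in mouse 6 they were 2 of 103 and 1 of 63 cells. In mouse 7 Igkv4-55 led in 0 of 71 uterine-draining cells, which allows up to 4.23%, and in mouse 97 in 0 of 20, which allows up to 15%. Upper limits of this kind cover the counting error of cells only.

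Igkv6-17 and Igkv8-24 were named after their values were seen. They did not pass in the node comparison, though each passed in some other settings. Igkv6-17 led in 30 brachial and 29 uterine-draining cells, a share of 1.62% ± 1.26 against 4.13% ± 3.02, with a log2 difference in summed UMIs of 1.16 (interval 0.57 to 1.75, edgeR adjusted p = 0.358) and of 1.27 without mouse 97 (adjusted p = 0.259 in edgeR). Its level was higher in the uterine-draining node in 6 of 7 mice, mouse 97 being the other. Igkv8-24 led in 15 and 11 cells, with a log2 difference of 1.38 (interval 0.77 to 1.99, edgeR adjusted p = 0.138), and its level was higher in 6 of 7 mice. Of these, mouse 8 had 1 uterine-draining UMI against 0 brachial ones. Mouse 7 had 16 against 31 UMIs, from 1 cell in each node. Without mouse 97, where 1 of 20 uterine-draining cells was led by it, the difference was 1.30 (edgeR adjusted p = 0.553). Igkv6-17 passed in edgeR with cells thinned to 1000 UMIs (1.38, adjusted p = 0.00626) and in pool LN alone (0.88, adjusted p = 0.0102). Igkv8-24 passed in edgeR without mouse 6 (adjusted p = 0.0231), without mouse 36 (0.0144) and in pool LN alone (0.00535). Both also passed with no low-count filter, and neither passed in any further setting, DESeq2 and limma-voom included. V segment transcripts as a whole made up 1.25% of brachial and 1.27% of uterine-draining B cell UMIs.

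**Figure D1:**
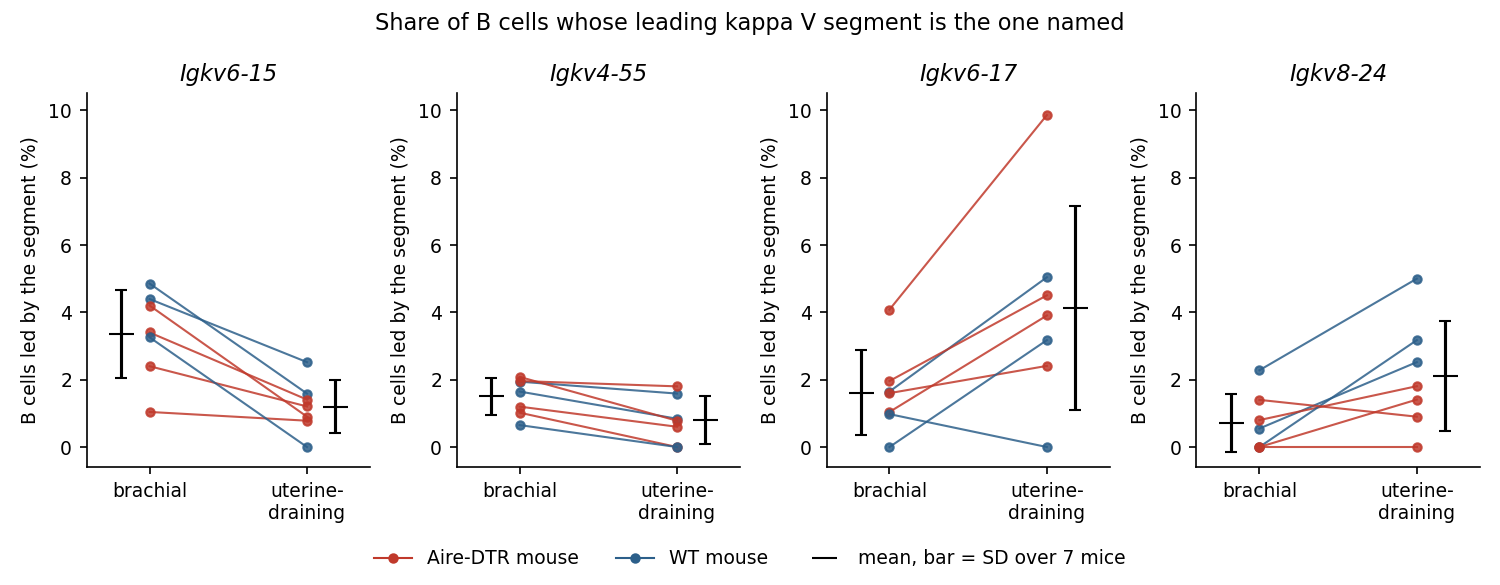
Share of the B cells of each mouse (y axis, percent) whose leading kappa V segment is the one named above each panel, in the brachial and uterine-draining node; lines join the nodes of a mouse, red for Aire-DTR and blue for WT, and black bars beside them give mean and SD over 7 mice. For Igkv6-15 and Igkv4-55 the uterine-draining share is the lower in all 7 mice, with means of 3.36% against 1.20% and 1.501% against 0.80%. Those uterine-draining shares rest on 0 to 3 led cells a mouse.

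Across all genes, 4176 passed the low-count filter and 2 were called at an adjusted p under 0.05 in edgeR, which is 0.0479%. Both were the V segments above. DESeq2 called 1 gene, Igkv4-55, and limma-voom called 2, Igkv6-15 and Apoe. At an unadjusted p under 0.05 edgeR listed 205 genes (4.91%), 113 of them higher in the uterine-draining node. Immunoglobulin V, D and J segments supplied 19 of these from 72 tested (26.4%), and all other genes 186 from 4104 (4.53%), where 0 passed the adjustment. The median log2 difference over all tested genes was 0.0033, and 2121 of 4176 were above 0.

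The sums were deep enough to bound most genes closely. For 4056 of the 4176 genes (97.1%) the 95% interval of the node difference lay within 2-fold in either direction, and all 137 genes with a level above 10 on the log2 CPM scale were among them. The median standard error was 0.180 on the log2 scale. It rose from 0.0461 in those 137 genes to 0.229 in the 1613 genes with a level under 6.

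**Figure D2:**
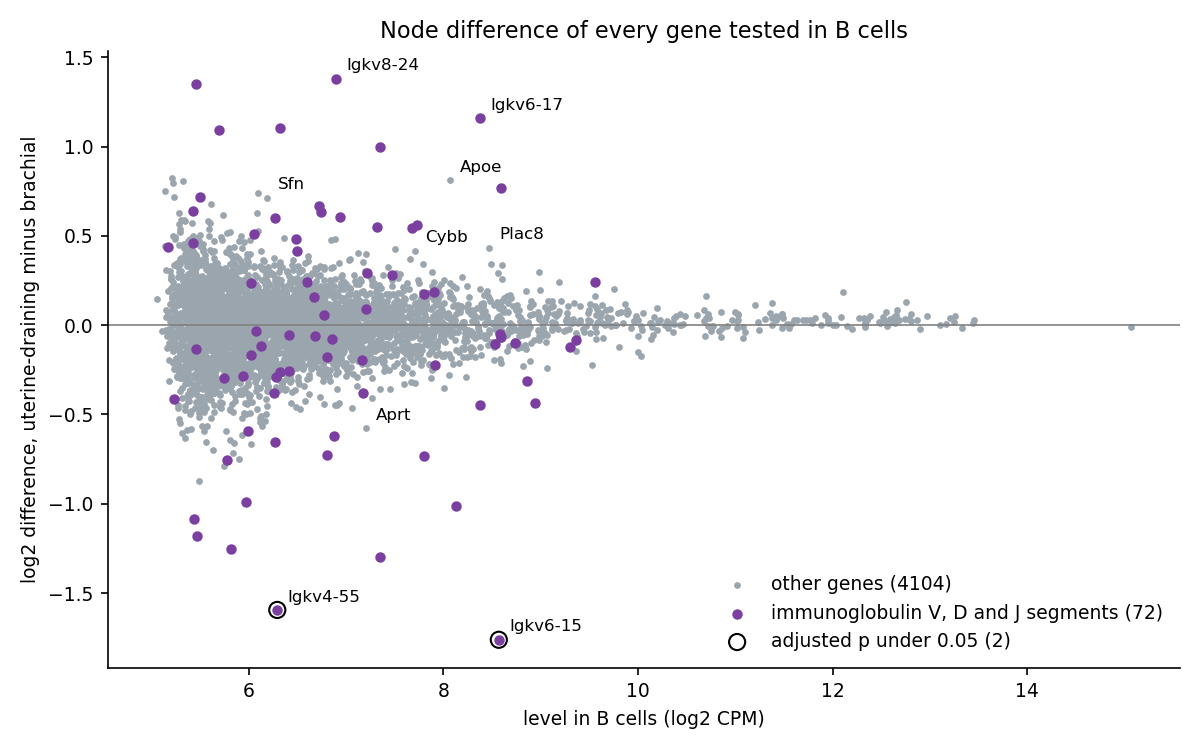
Log2 difference between uterine-draining and brachial B cells (y axis) against the level in B cells (x axis, log2 CPM) for the 4176 genes tested, with the 72 immunoglobulin V, D and J segments in purple. The 2 circled genes are those with an adjusted p under 0.05; most other genes narrow towards 0 with rising level, and the segments spread from -1.76 to 1.38.

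Among genes outside the immunoglobulin V segments none passed, and the 5 with the smallest p are described with their values. All are annotated as protein-coding genes of GRCm38, with Apoe at chr7:19696109-19699188, Aprt at chr8:122574635-122576909, Cybb at chrX:9435252-9487771, Plac8 at chr5:100553725-100572245 and Sfn at chr4:133600556-133602168. Apoe, which encodes a lipid-carrying apolipoprotein, came closest. Its brachial sums held 155 to 340.0 CPM with a median of 188, and its uterine-draining sums 151 to 524 with a median of 363.5. It was higher in the uterine-draining node in 5 of 7 mice, and mice 6 and 8, the members of pool 1, were lower there. In mouse 6 it was at 202 CPM in the brachial and 151 in the uterine-draining node, and in mouse 8 at 340.0 and 321.5. The ranges overlapped.

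The log2 difference of Apoe was 0.81 (95% interval 0.48 to 1.15, edgeR adjusted p = 0.0862). The mean difference of log2 levels was 1.02 in pool LN, 1.23 in pool 2 and -0.25 in pool 1. Whether Apoe passed depended on the setting. It did not pass in edgeR without mouse 1, 4, 7, 36 or 97 (adjusted p from 0.288 to 0.416; 0.78 and 0.359 without mouse 97), nor in DESeq2 (0.77, adjusted p = 0.103). The same held in edgeR with a stricter low-count filter (adjusted p = 0.160), with cells thinned to 1000 UMIs (0.60, adjusted p = 0.371) and without the B cells that held a T cell UMI (0.76, adjusted p = 0.423). It passed in edgeR without mouse 6 (0.94, adjusted p = 0.00713) or without mouse 8 (0.96, adjusted p = 0.0125), in limma-voom (0.87, adjusted p = 0.0203) and in pool LN alone (1.04, adjusted p = 0.00101). It also passed when immunoglobulin and globin genes were left out of the table (0.85, edgeR adjusted p = 1.09e-06); the prior degrees of freedom, by which the fit shares its estimate of spread across genes, were 13.7 with and 65.9 without those genes.

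Apoe had a UMI in 24.0% of brachial and 29.9% of uterine-draining B cells. In the naive T cells of the same nodes it was at 0.333 CPM ± 0.53 and 4.48 ± 6.8 (SD, n = 6), against means of 213 ± 61.7 and 365 ± 121 in B cells. Markers of myeloid cells, which also express Apoe, summed to 246 to 377 CPM in brachial and 298 to 363 in uterine-draining B cell sums. Here CPM is per UMIs of all genes, without TMM scaling. The marker sums were higher in the uterine-draining node in 5 of 7 mice. On the same scale Cst3, a marker of that list, stood at 256 CPM over all B cells, and Lyz2 at 4.30. Cst3 also had a UMI in 24.1% of naive CD4 and 28.3% of naive CD8 T cells. The part of myeloid cells in the Apoe difference was not tested.

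Aprt encodes the enzyme that salvages adenine into the nucleotide pool. It ran from 133 to 210.5 CPM in brachial sums, with a median of 139, and from 77.7 to 156 in uterine-draining sums, with a median of 96.9. All 7 mice were lower in the uterine-draining node and the ranges overlapped. The log2 difference was -0.58 (95% interval -0.84 to -0.31, edgeR adjusted p = 0.186) and -0.57 without mouse 97 (adjusted p = 0.359), with means of -0.64, -0.52 and -0.59 in pools 1, 2 and LN.

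Cybb encodes the catalytic subunit of the phagocyte NADPH oxidase, which B cells also carry. Brachial sums held 120 to 221 CPM with a median of 184, and uterine-draining sums 175 to 282 with a median of 238. It was higher in the uterine-draining node in 7 of 7 mice, and by a mean log2 of 0.41, 0.37 and 0.38 in pools 1, 2 and LN. The fitted difference was 0.42 (95% interval 0.19 to 0.64), with an edgeR adjusted p of 0.470, and 0.44 without mouse 97 (adjusted p = 0.464).

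Plac8 encodes a small cysteine-rich protein. Its brachial sums ran from 168 to 407 CPM with a median of 333, and its uterine-draining sums from 258 to 479 with a median of 441. All 7 mice were higher in the uterine-draining node, mouse 97 by the least. The log2 difference was 0.43 (95% interval 0.21 to 0.66, edgeR adjusted p = 0.358), and the mean by pool was 0.90, 0.15 and 0.36 in pools 1, 2 and LN. Without mouse 97 it was 0.46 (edgeR adjusted p = 0.435).

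Sfn, which encodes the phosphoprotein-binding adaptor 14-3-3 sigma, was scarcer. It ran from 47.2 to 73.9 CPM with a median of 57.8 in brachial sums and from 63.7 to 175 with a median of 103 in uterine-draining ones. It was higher in 6 of 7 mice, mouse 8 being the other, and the highest value, in mouse 97, came from 9 UMIs. The log2 difference was 0.71 (95% interval 0.32 to 1.104, edgeR adjusted p = 0.503), and without mouse 97 it was 0.62 (edgeR adjusted p = 0.777).

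**Figure D3:**
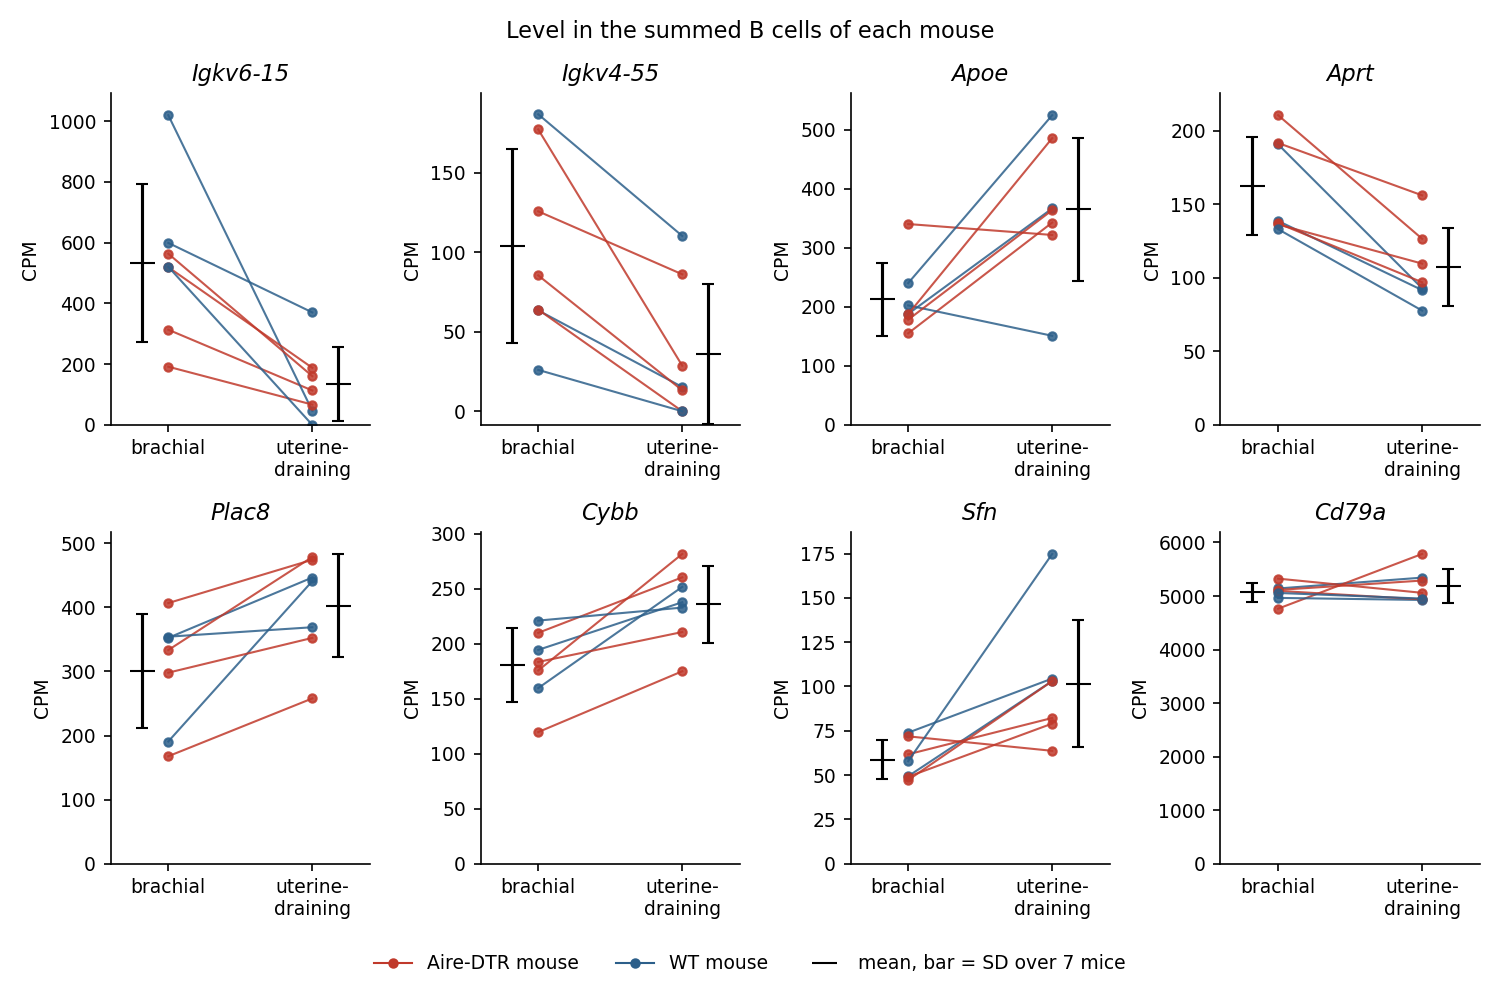
Level in the summed B cells of each mouse (y axis, CPM, from 0) in the brachial and uterine-draining node for the 2 called V segments, the 5 other genes with the smallest p, and Cd79a as a B cell reference; lines join the nodes of a mouse and black marks give mean and SD over 7 mice. In the uterine-draining node Igkv6-15, Igkv4-55 and Aprt are lower in all 7 mice and Plac8 and Cybb higher in all 7, while the Cd79a means are 5066 and 5185 CPM.

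Other B cell genes were grouped in 26 lists of 458 genes, of which 444 were in the matrix and 316 were tested. None of the 316 was called by edgeR, DESeq2 or limma-voom, and 20 (6.33%) had an unadjusted edgeR p under 0.05, against 4.91% of all genes. By list these were 3 B cell receptor and coreceptor genes, 2 each of the memory, toll-like receptor, TGF beta, mitochondrially encoded and actin lists, all higher in the uterine-draining node, and 1 each in 7 further lists. Lists without a call are described by their members of highest level and a few genes examined in any case.

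Of the B cell receptor and coreceptor genes 11 of 17 tested were above 0, with a median log2 difference of 0.042 and a range of -0.14 to 0.35. Cd79a stood at 5066 ± 172 CPM (mean ± SD, n = 7) in the brachial and 5185 ± 315 in the uterine-draining node, a log2 difference of 0.037 with an interval of -0.051 to 0.13. Its partner chain Cd79b differed by 0.042 (-0.058 to 0.14) and Ms4a1 by 0.031 (-0.082 to 0.14). B cell transcription factors had 10 of 16 above 0 and a median of 0.039. Ebf1, which specifies the B lineage, differed by 0.042 (-0.082 to 0.17), and Klf2, which keeps lymphocytes quiescent and recirculating, by -0.0067 (-0.17 to 0.16).

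The immunoglobulin constant genes, which mark the isotype, had 3 of 6 above 0 and a median of -0.00070. Ighm was at 1178 ± 145 CPM in brachial and 1139 ± 143 in uterine-draining sums, and Ighd at 675 ± 73.2 and 628 ± 51.9. Their log2 differences were -0.026 (-0.17 to 0.12) and -0.086 (-0.23 to 0.061). Iglc2, a lambda constant gene, differed by 0.061 (-0.051 to 0.17).

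Markers of B cells engaged in a response were scarce in both nodes. Mki67, a marker of dividing cells, had 6 UMIs in brachial and 2 in uterine-draining B cells, and Jchain, which joins secreted IgM and IgA, had 14 and 7. Neither passed the filter. Only 3 of 16 germinal centre genes in the matrix were tested, with a median of 0.094. Mef2c and Lmo2, the highest of them and both also expressed by resting B cells, differed by -0.039 (-0.19 to 0.11) and 0.094 (-0.12 to 0.31). Plasma cell genes had 7 of 9 tested genes above 0 and a median of 0.080. The secretory pathway genes Hsp90b1 and Ssr4, the highest there, differed by 0.078 (-0.14 to 0.30) and 0.018 (-0.17 to 0.20).

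Memory, B1 and marginal zone genes had 6 of 9 above 0 and the range -0.49 to 0.43, with a median of 0.13. Crip1, a small LIM protein high in memory B cells, was at 798 ± 93.3 CPM in brachial and 945 ± 184 in uterine-draining sums. Its log2 difference of 0.20 had an interval of 0.034 to 0.37 and an edgeR adjusted p of 0.991, and 4 of 7 mice were higher. Vim, the intermediate filament gene, differed by 0.13 (-0.14 to 0.40).

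Activation genes had 7 of 9 above 0 and a median of 0.056. Cd69, which holds activated lymphocytes in the node, was at 186 ± 47.6 and 192 ± 31.7 CPM, a difference of 0.056 (-0.21 to 0.32). Cd83 was higher in the uterine-draining node in 6 of 7 mice, at 578 ± 100.3 against 511 ± 51.0 CPM, with a log2 difference of 0.13 (-0.061 to 0.33). The costimulator Cd86 was not tested, with 100 UMIs in brachial and 45 in uterine-draining B cells.

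AP-1 and immediate early genes, which answer within minutes to receptor signals or to tissue handling, had 11 of 12 above 0 and a median of 0.10, with no unadjusted p under 0.05. Their range was -0.069 to 0.26. Jun differed by 0.26 (-0.14 to 0.65), Nfkbia by 0.100 (-0.053 to 0.25) and Zfp36 by 0.083 (-0.079 to 0.24). Fos was not tested, with 54 and 30 UMIs. Of the NF-kB subunits and feedback genes 5 of 11 were above 0, with a median of -0.0089, and Rel differed by 0.14 (-0.12 to 0.40). Heat shock chaperones had 2 of 8 above 0 and a median of -0.068. The cytosolic chaperones Hsp90ab1 and Hspa8 differed by -0.074 (-0.17 to 0.026) and -0.076 (-0.21 to 0.057).

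Toll-like receptor genes had 5 of 7 above 0 and a median of 0.21, and 2 of the 7 had an unadjusted p under 0.05. Unc93b1, the escort of the nucleic acid sensing receptors to endosomes, stood at 538 ± 44.0 CPM in brachial and 630 ± 38.2 in uterine-draining sums. It was higher in the uterine-draining node in 7 of 7 mice, by 0.24 (0.099 to 0.38), with an edgeR adjusted p of 0.564. Ly86, which pairs with a receptor relative on B cells, differed by -0.0045 (-0.16 to 0.16).

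Type I interferon response genes, which answer to interferons alpha and beta, had 4 of 15 above 0 and a median of -0.17, the lowest of the 26 list medians. None of the 15 had an unadjusted p under 0.05. Ifi27l2a was at 1101 ± 324 CPM in brachial and 947 ± 159 in uterine-draining sums and differed by -0.17 (-0.37 to 0.022), with 3 of 7 mice higher. Ifi203, a cytosolic DNA sensor relative, differed by -0.086 (-0.32 to 0.15).

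Antigen presentation is the other main task of these cells. Cd74, the class II invariant chain, was at 34502 ± 2073 and 34262 ± 1142 CPM, and the log2 difference was -0.0076 (-0.086 to 0.071). MHC class II genes had 7 of 12 above 0 and a median of 0.0070, with H2-Aa at 0.00039 (-0.094 to 0.095). Class I presentation genes had 12 of 17 above 0 and a median of 0.057. The class I heavy chains H2-K1 and H2-D1 differed by 0.035 (-0.057 to 0.13) and -0.013 (-0.11 to 0.083).

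Genes for entry, positioning and exit had 6 of 14 above 0 and a median of -0.011. Ccr7, which draws lymphocytes towards the T zone border, differed by -0.019 (-0.25 to 0.21), and the exit receptor S1pr1 by 0.063 (-0.24 to 0.37). BAFF, APRIL and survival genes had 8 of 11 above 0 and a median of 0.079. Tnfrsf13c, the BAFF receptor that keeps mature B cells alive, was at 433 ± 34.1 and 492 ± 47.4 CPM. Its difference was 0.19 (0.023 to 0.36, edgeR adjusted p = 0.998), and 6 of 7 mice were higher. Tnfrsf13b (TACI) differed by 0.065 (-0.14 to 0.27).

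Signals that pregnancy alters were followed in further lists. Of the TGF beta pathway genes 5 of 6 were above 0, with a median of 0.32, the highest of the list medians, and 2 of the 6 had an unadjusted p under 0.05. The most abundant, the ligand Tgfb1 and the receptor chain Tgfbr2, differed by -0.0065 (-0.21 to 0.20) and 0.16 (-0.098 to 0.43). Glucocorticoid response genes had 4 of 6 above 0 and a median of 0.094. Tsc22d3 (GILZ) differed by 0.21 (-0.097 to 0.51) and Txnip by -0.13 (-0.36 to 0.11). Cytokine receptor and JAK-STAT genes had 5 of 12 above 0 and a median of -0.013, with the common gamma chain Il2rg at -0.058 (-0.21 to 0.090) and Jak1 at -0.025 (-0.20 to 0.15).

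Metabolic and structural genes were followed as well. Glycolysis genes had 3 of 12 above 0 and a median of -0.047, with Gapdh at -0.043 (-0.22 to 0.13) and Aldoa at -0.016 (-0.18 to 0.15). Mitochondrially encoded genes had 7 of 9 above 0 and a median of 0.046, with mt-Co1 at 0.054 (-0.035 to 0.14) and mt-Atp8 at 0.046 (-0.034 to 0.13). Ribosomal protein genes had 62 of 77 above 0, but their median was 0.027 and their range -0.22 to 0.084. Rps24 and Rps20 differed by 0.0098 (-0.067 to 0.086) and 0.050 (-0.034 to 0.13).

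Actin and thymosin genes had a median of 0.018 over 11 genes, with Actb at -0.016 (-0.094 to 0.062) and Tmsb10 at 0.050 (-0.043 to 0.14). Cell cycle genes had a median of -0.0061 over 6 tested, with Tubb5 at 0.068 (-0.091 to 0.23) and H2afz at 0.099 (-0.18 to 0.37). The list named cold-inducible had a median of 0.024 over 4 genes, with Rbm3 at -0.0057 (-0.13 to 0.12). It also held the chaperone gene Hspa5, at 0.053 (-0.11 to 0.22). Lars2 and Gm20594, whose reads can stem from ribosomal RNA, differed by -0.0023 (-0.16 to 0.15) and 0.0012 (-0.20 to 0.20).

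**Figure D4:**
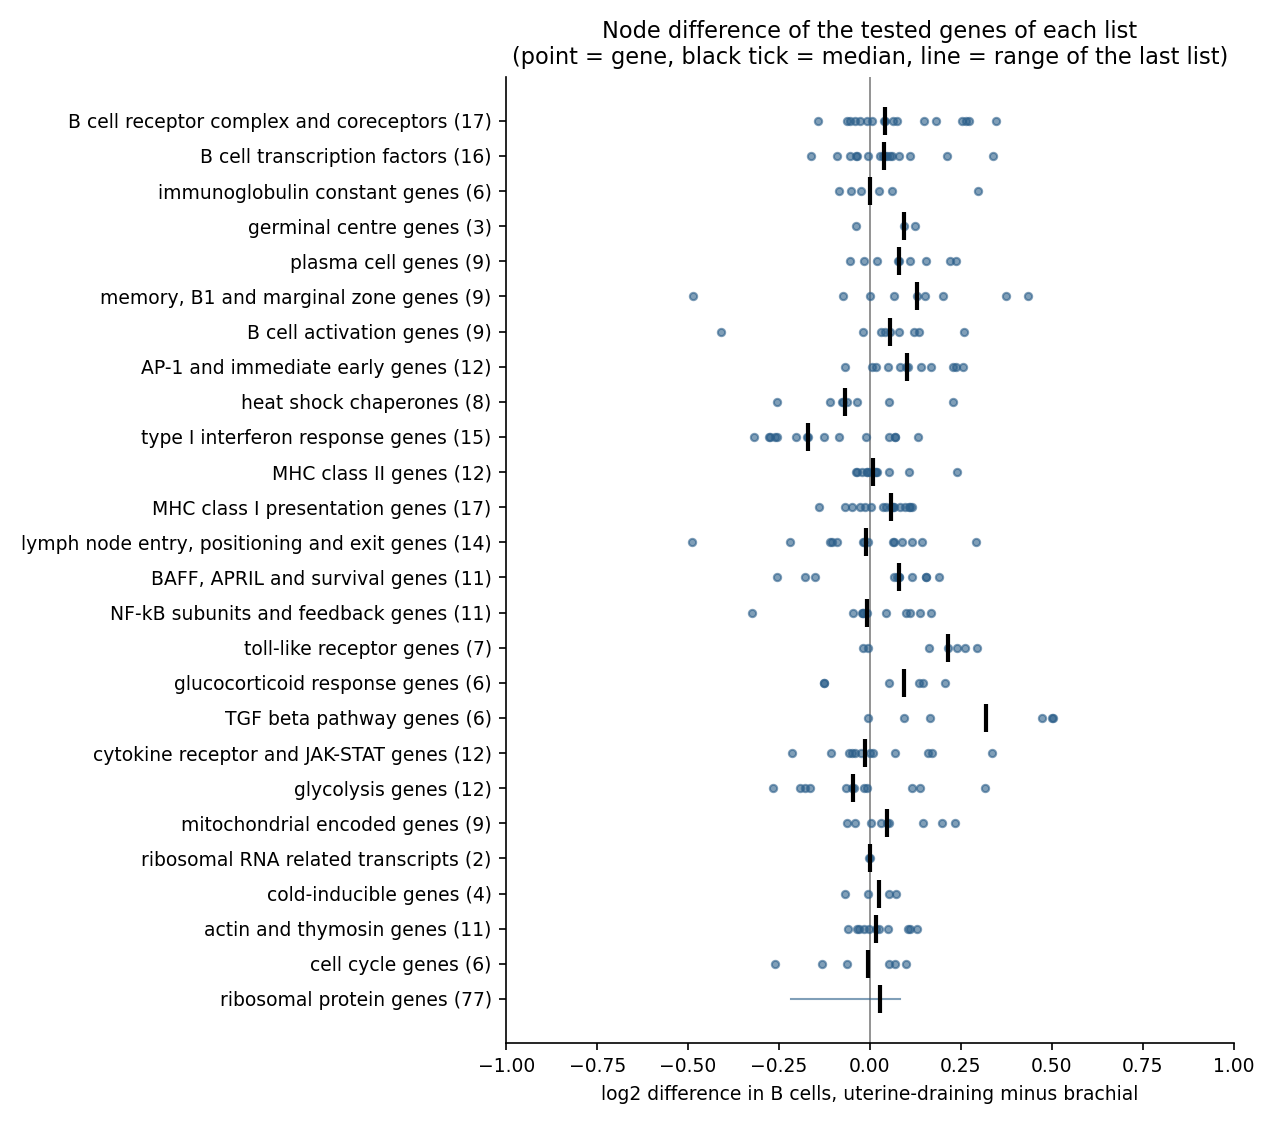
Log2 difference in B cells (x axis, uterine-draining minus brachial) of the tested genes of the 26 lists, with the number tested in parentheses; points are genes, the line is the range of the 77 ribosomal protein genes, and black ticks are medians. Medians run from -0.17 for the type I interferon response genes to 0.32 for the TGF beta pathway genes, and no gene shown passed an adjusted p of 0.05.

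Markers of other cells were present in the B cell sums at levels that differed between mice. Their CPM are per UMIs of all genes, without TMM scaling. T cell markers (10 of 10 with UMIs) summed to 155 to 1098 CPM in brachial and 38.0 to 889 in uterine-draining sums, and were higher in the brachial node in 5 of 7 mice. Red cell markers (4 of 4) ranged from 8.3 to 2151 and from 0 to 3075 CPM, also higher in the brachial node in 5 of 7. Among the T cell markers 5 were tested, all below 0, with a median of -0.28 and no unadjusted p under 0.05. With the B cells that held any T cell receptor or CD3 UMI left out, Igkv6-15 was the 1 gene called by edgeR (-2.03, adjusted p = 0.000247), in the 6 mice that kept 20 cells a sum.

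The share of B cells among all cells had no common direction. It was 32.7% ± 5.4 (SD, n = 7) in the brachial and 32.8% ± 8.7 in the uterine-draining node. The brachial shares ran from 24.4% to 40.6% and the uterine-draining ones from 21.5% to 41.7%. The mean difference within a mouse was 0.072 percentage points with an SD of 6.63, and 4 of 7 mice were higher in the uterine-draining node (exact two-sided permutation test over mice, p = 0.984, with 0.0156 the smallest p that 7 pairs allow). Since the sort gate can set this share, it describes the sorted cells.

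By genotype, the difference was 4.09 points ± 3.005 in the 3 WT mice, all higher in the uterine-draining node, and -2.94 ± 7.32 in the 4 Aire-DTR mice, of which mouse 8 alone was higher. The uterine-draining share of WT mouse 97 came from 20 B cells among 48 cells, and WT mouse 6 differed by 0.90 points. The gap of -7.04 points between genotypes gave an exact permutation p of 0.229 (smallest possible 0.0571). The median depth per B cell was 2252 ± 120 UMIs (SD, n = 7) in brachial and 2347 ± 197 in uterine-draining B cells. The mean log2 ratio was 0.057, with 5 of 7 mice higher and an exact permutation p of 0.188.

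**Figure D5:**
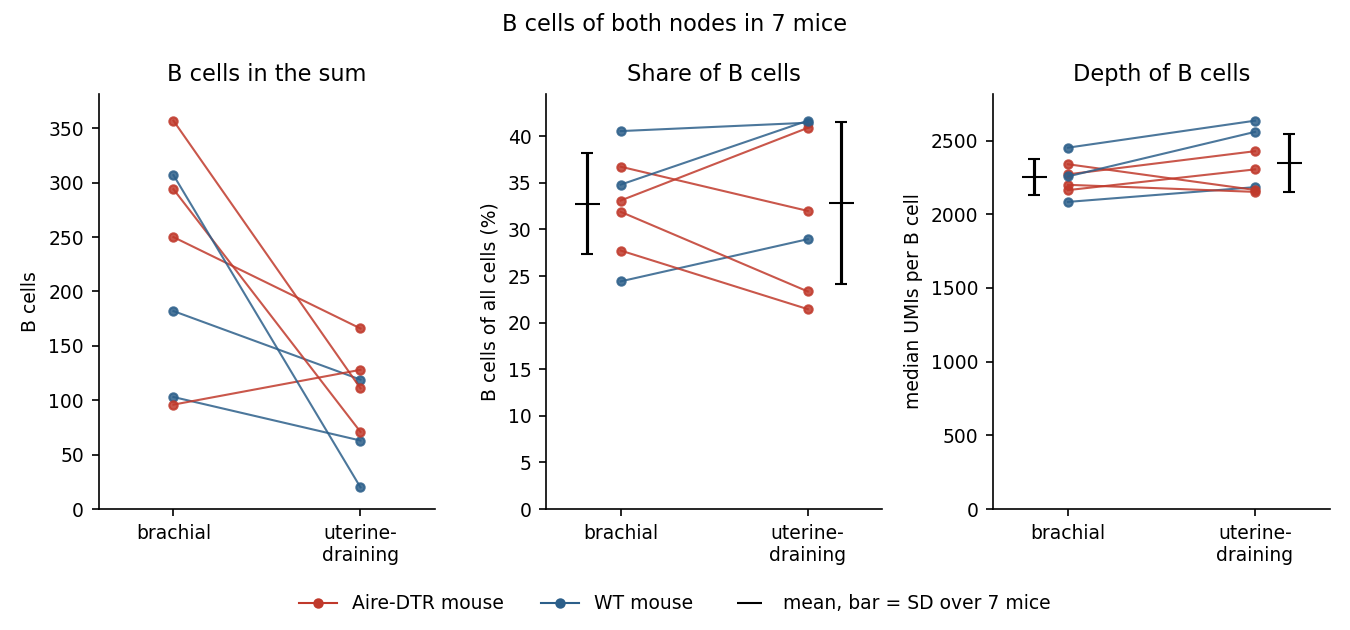
Number of B cells, share of B cells among all cells (percent) and median UMIs per B cell (y axes, from 0) for each mouse in the brachial and uterine-draining node; lines join the nodes of a mouse, red for Aire-DTR and blue for WT, and black bars on the last pair of panels give mean and SD over 7 mice. Shares average 32.7% and 32.8%, with WT lines all sloping up, and the uterine-draining sum of mouse 97 is lowest with 20 cells.

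Whether the node difference of B cells depended on genotype was tested gene by gene as an interaction. Of 5135 genes 1 was called by edgeR (0.0195%), Igkv3-1, and 196 had an unadjusted p under 0.05 (3.82%). DESeq2 called 0, with 52 at an unadjusted p under 0.05. The Igkv3-1 call rested on single cells: in the brachial node its UMIs came from 1 cell each in mice 1, 4, 36 and 97, with 49, 21, 23 and 39 UMIs. In the uterine-draining node mice 4 and 36 had 25 and 32 UMIs, and all 3 WT mice had 0. Aire-DTR mice 7 and 8 and WT mouse 6 had 0 in both nodes. Its fitted difference of 9.31 depends on the prior count where a group is at 0 and is no measure of size. Outside the immunoglobulin segments the 5 genes with the smallest p were Trbv1, Trbv15, Eci2, Elf1 and Mapkapk2, with edgeR adjusted p from 0.675 to 0.9998.

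For the genes of the node comparison the genotype intervals were wide. The difference of node differences (Aire-DTR minus WT) was 0.46 (-0.74 to 1.66) for Igkv6-15 and -0.63 (-2.01 to 0.75) for Igkv4-55. It was 0.28 (-0.46 to 1.01) for Apoe, 0.32 (-0.26 to 0.90) for Aprt, 0.036 (-0.45 to 0.52) for Cybb and -0.17 (-0.65 to 0.32) for Plac8. Each of these 6 intervals held 0.

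The node difference of B cells was also set against that of naive CD4 and CD8 T cells from the same samples, in the 6 mice with at least 20 cells in all 4 sums; mouse 97 had 18 naive T cells in the uterine-draining node. Of 6143 genes 2 were called by edgeR (0.0326%), 1 in each direction (0.0163%), and 310 had an unadjusted p under 0.05 (5.05%). DESeq2 called 0, with 59 at an unadjusted p under 0.05. Both were T cell receptor V segments, Trbv14 and Trbv26, with 26 and 0 UMIs in uterine-draining and 5 and 47 UMIs in brachial B cells of these mice. The next genes by p were Itm2a, Trbv15 and Trbv29, each with an adjusted p of 0.0712. Aprt, lower in uterine-draining B cells, stood at 179 ± 8.1 and 177 ± 36 CPM in naive T cells of the brachial and uterine-draining node. Its B minus T difference was -0.57 (interval -0.89 to -0.26, edgeR adjusted p = 0.335).

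The naive T cells alone gave 7 genes of 5777 called by edgeR (0.121%) between the nodes, 5 higher (0.0866%) and 2 lower (0.0346%) in the uterine-draining node, and 373 (6.46%) had an unadjusted p under 0.05. Klf2, called there at 0.23 (0.15 to 0.32, edgeR adjusted p = 0.00249), was at -0.0067 in B cells, and the B minus T difference was -0.22 (-0.40 to -0.051, edgeR adjusted p = 0.928).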

How the data were processed

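Droplet single-cell RNA counts from lymph nodes of pregnant mice were used. The deposited matrix held UMI counts, whole numbers not normalized by the authors. Seurat, Scanpy 1.7.0, bustools 0.40.0, kallisto 0.46.1 and the build GRCm38 are listed in the submitters' processing notes; how doublets were treated is not given in the sources used here, and no doublet caller was run. Cell types, mice and nodes came from the authors' deposited cell table. Uterine cells were not analysed here.

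Rows repeating a cell were dropped, and B cell counts were summed per mouse and node (minimum 20 cells). The nodes were compared with edgeR 4.0.16 (R 4.3.3; filterByExpr, TMM, quasi-likelihood, mouse as block, Benjamini-Hochberg adjusted p under 0.05), checked on simulated counts. Per-sample log2 CPM used a prior count of 2. DESeq2 1.42.0, limma 3.58.1 (voom), other scalings, filters and cells, and leaving out each mouse were alternatives. The pairing comes from the labels, since both nodes are of the same animal. Deviations from the node means correlated at 0.024 to 0.22 within a mouse (7 pairs, median 0.12), at -0.0085 to 0.22 between mice of a pool (10 pairs, median 0.14) and at -0.17 to 0.097 between pools (32 pairs), so pool and animal are not separated by this check. Shares and depths were compared with exact two-sided permutation tests over mice (scipy 1.17.1).

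Genes named were those past the test, members of gene lists by level, the 5 smallest p of a comparison with fewer than 5 calls, and genes always examined; V segments were to be counted only, and those named were chosen after their values were seen. Some genes always examined are not reported here. The members and lists were chosen with earlier results of these data known. V segment sequences came from GENCODE M21.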

Additional observations from a re-analysis of the deposited data

Results flagged for a closer look

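Among 132 groups of 7 values (a gene in B cells of a node, or B cell share or depth), 8 held a mouse far from the other 6; chance gives about 1 in 20 such groups. In log2 CPM these were Apoe in the uterine-draining node of mouse 6 (7.29), Hsp90b1 there in mouse 7 (7.92), Tubb5 there in mouse 7 (9.49) and Tnfrsf13b there in mouse 6 (8.42). In the brachial node they were Tnfrsf13c in mouse 4 (8.53) and mt-Co1 in mouse 6 (12.2). Igkv6-17 stood apart in the brachial node of mouse 6 and in the uterine-draining node of mouse 97, at 2.39 in both, the value that 0 UMIs give.

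The node difference itself differed between groups for 3 genes. The difference in Aire-DTR minus WT mice was 9.31 for Igkv3-1 (edgeR adjusted p = 0.0237), whose UMIs came from 1 to 3 cells of a sum. The difference in B cells minus naive T cells was 4.30 for Trbv14 (edgeR adjusted p = 0.00101) and -6.12 for Trbv26 (edgeR adjusted p = 0.00345). In B cells of the 6 mice tested these segments had 31 and 47 UMIs. These log2 values depend on the prior count where sums are at 0.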

How the results depend on the processing

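Of the node comparison's 2 calls, 2 were made with limma-voom, RLE or total-UMI scaling, cells of at least 1000 UMIs and cells thinned to 1000 UMIs, not always of the same genes. Just 1 gene was called with DESeq2, a stricter low-count filter, at least 50 cells a sum, B cells without T cell UMIs, the repeated rows kept (chosen after seeing the data), and immunoglobulin and globin genes left out, where it was Apoe. With no low-count filter 45 of 13343 genes passed (20 higher, 25 lower), of which 35 were immunoglobulin V segments. In pool LN alone 11 passed. With no replicate block, and pool as a term, 0 passed in edgeR, against 201 at an unadjusted p under 0.05. Without 1 mouse each, 1 to 5 genes passed: 5 without mouse 6, 4 without mouse 36, and 1 without mouse 4, 7 or 97.

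The interaction with genotype gave 0 genes with DESeq2 (52 at an unadjusted p under 0.05) and 2 to 6 without 1 mouse each (6 without mouse 7, 3 without mouse 1, 36 or 97, 2 without mouse 4, 6 or 8). The B minus naive T comparison gave 0 with DESeq2 (59 at an unadjusted p under 0.05), 2 against CD4 and 3 against CD8 naive T cells alone, and 1 to 8 without 1 mouse each (8 without mouse 8, 6 without mouse 36, 4 without mouse 1 or 7, 1 without mouse 4). The difference in B cell share ranged from -1.21 to 1.51 points without 1 mouse each, and was below 0 without mouse 1 (-0.670), 6 (-0.0652), 8 (-1.21) or 97 (-1.06). The log2 ratio of depth ranged from 0.036 to 0.085. The cause of these changes was not tested. Igkv6-15 kept its call without each mouse (-2.10 to -1.46), and lost it with no replicate block (-1.83, edgeR adjusted p = 0.0542). Igkv4-55 lost it there too (adjusted p = 0.420). Aprt passed with no low-count filter (-0.62, edgeR adjusted p = 0.0120) and in none of the other 20 settings (-0.65 to -0.29). With cells thinned to 1000 UMIs the difference was -0.29 for Aprt, 0.14 for Plac8 and 0.53 for Cybb. No named gene changed direction among those called or at an unadjusted p under 0.05.

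Depth limits the scarce genes: the uterine-draining sum of mouse 97 held 20 cells, and genes under a log2 CPM of 6 had a median standard error of 0.229.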
